A study of Mus musculus with 2 samples.

Results

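The 10 genes described here encode chemokines that attract neutrophils, the colony-stimulating factors of myeloid cells, and the receptors of both: Cxcl1, Cxcl2, Cxcl3, Cxcl5, Cxcr2, Csf1, Csf2, Csf3, Csf1r and Csf3r. They were taken by symbol, and all 10 were found among the 55357 features listed in both count matrices. The series asked what blocking PKMYT1, a kinase that restrains CDK1 before mitosis, does to prostate tumours and their immune cells. RM-1 is a prostate cancer line from the mouse; its cells were implanted subcutaneously in C57BL/6 hosts (genotype given as WT), and tumours were taken on day 10 of treatment with the PKMYT1 inhibitor RP-6306 or with vehicle. Each treatment had 1 library of droplet-based single-cell RNA sequencing, and the labels do not say clearly how many mice a library holds or how old they were. Both libraries therefore come from 1 implanted cell line in an immunocompetent host.

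CXCL1, CXCL2, CXCL3 and CXCL5 are ligands of CXCR2, the chemokine receptor through which mouse neutrophils leave the marrow and enter inflamed tissue and tumours. CSF3 (G-CSF) acts through CSF3R to drive the making and survival of neutrophils, CSF1 (M-CSF) acts through CSF1R to maintain monocytes and macrophages, and CSF2 (GM-CSF) acts on both lineages through a receptor of its own. Many of these ligand genes are induced by interleukin 1, tumour necrosis factor and microbial signals through the transcription factor NF-kB.

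The 4 CXCR2 ligand genes of this set lie in 1 cluster on mouse chromosome 5, spanning 146579 bases of GRCm38 on the plus strand. Cxcl5 (ENSMUSG00000029371, chr5:90759360-90761624) comes first, then Cxcl3 (ENSMUSG00000029379, chr5:90786103-90789600), Cxcl1 (ENSMUSG00000029380, chr5:90891241-90893115) and Cxcl2 (ENSMUSG00000058427, chr5:90903871-90905938). Cxcl1 and Cxcl2, the most abundant members in these tumours, are 10756 bases apart. Csf2 (ENSMUSG00000018916, chr11:54247271-54249667, minus strand) and Csf3 (ENSMUSG00000038067, chr11:98701263-98703629, plus strand) lie far apart on chromosome 11, Csf1 (ENSMUSG00000014599, chr3:107741048-107760469, minus strand) on chromosome 3, Cxcr2 (ENSMUSG00000026180, chr1:74153989-74161246, plus strand) on chromosome 1 and Csf3r (ENSMUSG00000028859, chr4:126024550-126044440, plus strand) on chromosome 4. All are annotated as protein-coding genes, as is Csf1r (ENSMUSG00000024621).

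The promoters of 3 of the ligand genes are shown because the transcripts of Cxcl1 and Cxcl2 were found in the same tumour cells. Each sequence is the 250 bases before the RefSeq start site on GRCm38.p6, plus strand, at chr5:90890995-90891244 for Cxcl1, chr5:90903649-90903898 for Cxcl2 and chr5:90785851-90786100 for Cxcl3. Capitals mark matches to the kB consensus, the DNA motif of NF-kB, searched on both strands.
Cxcl1: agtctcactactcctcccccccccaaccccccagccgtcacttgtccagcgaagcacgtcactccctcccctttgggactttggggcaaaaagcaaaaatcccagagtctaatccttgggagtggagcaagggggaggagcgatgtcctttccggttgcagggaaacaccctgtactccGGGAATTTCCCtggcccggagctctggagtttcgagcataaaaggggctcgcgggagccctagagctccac
Cxcl2: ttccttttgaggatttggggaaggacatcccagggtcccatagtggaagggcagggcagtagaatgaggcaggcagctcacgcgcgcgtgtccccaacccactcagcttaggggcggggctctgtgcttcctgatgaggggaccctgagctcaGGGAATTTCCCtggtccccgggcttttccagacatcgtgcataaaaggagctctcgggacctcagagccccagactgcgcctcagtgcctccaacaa
Cxcl3: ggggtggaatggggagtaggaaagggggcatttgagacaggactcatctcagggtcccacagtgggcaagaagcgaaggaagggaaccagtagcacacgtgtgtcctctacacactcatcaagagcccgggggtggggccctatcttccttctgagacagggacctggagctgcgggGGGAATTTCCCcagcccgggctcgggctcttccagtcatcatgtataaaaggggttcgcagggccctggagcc
The same block of letters, GGGAATTTCCC, stood in all 3 promoters and holds 2 overlapping kB matches, 1 on each strand. It ran from position -71 to -61 before the start of Cxcl1, from -97 to -87 for Cxcl2 and from -73 to -63 for Cxcl3. The promoter table also held Csf1 and Csf3r, with 1 kB match each, and Cxcr2 and Csf2, with 0. Of all 32851 promoter windows of this length in the table, 7.25% held a kB match. The Csf2 window was chr11:54249900-54250149, whereas the gene position given above puts the minus-strand start at 54249667. The bases just before that start were therefore not searched. A match is a description of the letters and shows no binding, and no match says only that the letters are not in this window.

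The RP-6306 library held 10512 barcodes and 106465655 UMIs (unique transcript molecules), and the vehicle library held 9686 barcodes and 100815022 UMIs. After filtering, 9500 RP-6306 cells and 8856 vehicle cells were retained. The libraries had 34 barcode sequences in common. A per-cell marker gate that used none of the 10 genes called 8077 RP-6306 and 7712 vehicle cells tumour-like, with median depths of 9684 and 9788.5 UMIs. It called 247 and 232 cells macrophage-like, 142 and 94 monocyte-like, 54 and 49 fibroblast-like, 50 and 35 T or NK-like, and 10 and 3 neutrophil-like, while 840 and 658 cells met no class. Krt8, an epithelial keratin, was at 754 CPM (a gene's UMIs over the UMIs of its class, on the usual CPM scale) in RP-6306 and 1004 CPM in vehicle tumour-like cells, while macrophage-like cells had 55.1 and 64.9 CPM. No listed marker was among the 10 leading genes of the tumour-like or fibroblast-like classes, which are called by their gate. Since each treatment had 1 library, nothing could be set against variation from animal to animal, and no p-value is given. "Higher" and "lower" compare these 2 libraries, and all intervals are 95% intervals that cover counting error only.

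**Figure D1:**
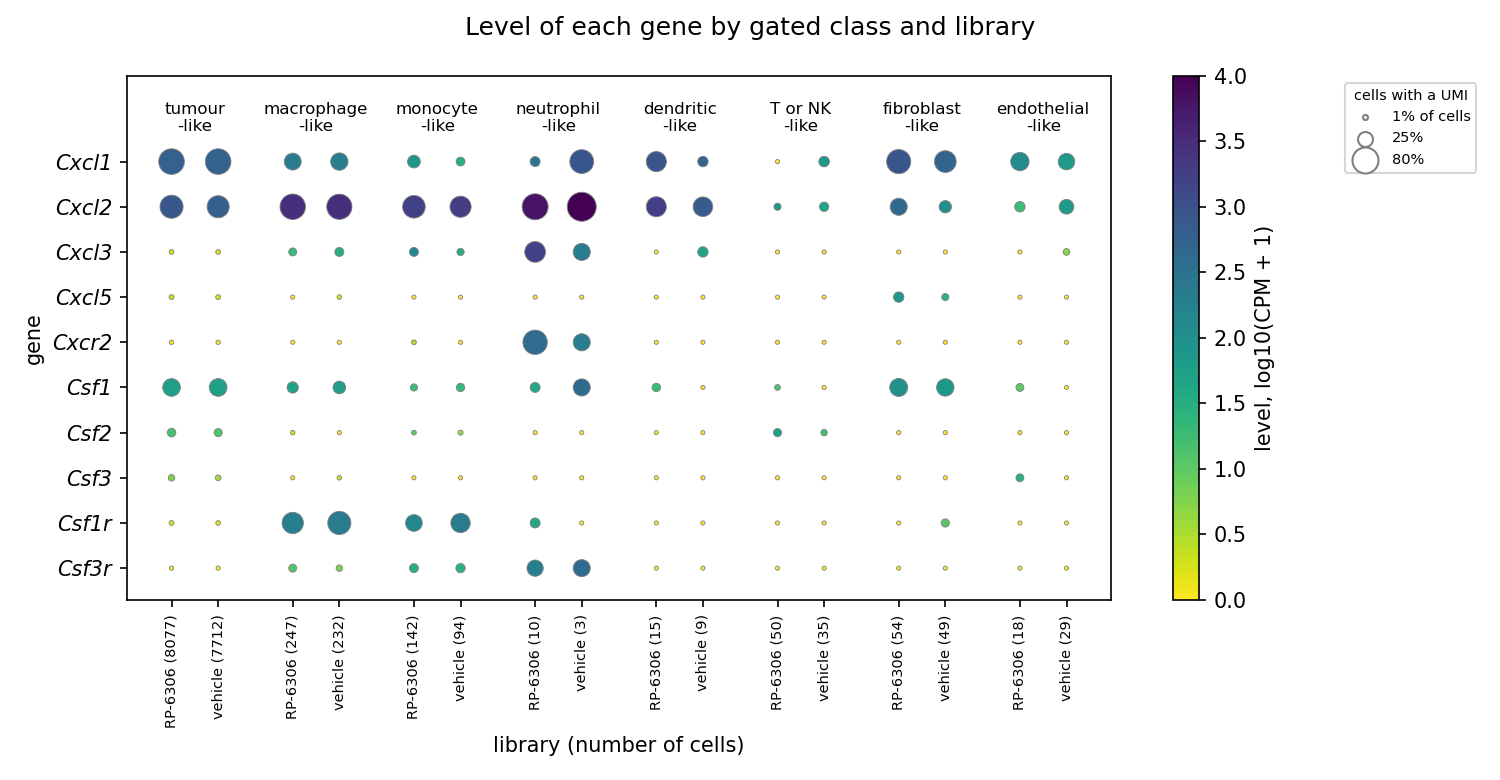
Level of the 10 genes in 8 gated cell classes of the RP-6306 and vehicle libraries; colour is log10(CPM + 1), point size the percent of cells with at least 1 UMI, and the number of cells is in brackets on the x axis. Cxcl1 and Cxcl2 were found in nearly all classes, Csf1r in macrophage-like and monocyte-like cells, and Cxcr2 in neutrophil-like cells (7 of 10 and 1 of 3).

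The 4 CXCR2 ligands of this set came mainly from tumour-like cells in both libraries. These cells held 91.8% of all UMIs of the 4 ligands in the RP-6306 library (interval 91.7 to 92.0%) and 91.4% in the vehicle library (91.2 to 91.5%). Macrophage-like cells held 2.97% and 3.68%. Per UMI sequenced the order was another: the summed ligand level was 3228 CPM in RP-6306 and 3243 CPM in vehicle macrophage-like cells, against 1415 and 1181 CPM in tumour-like cells. Tumour-like cells were 85.0% of RP-6306 and 87.1% of vehicle retained cells, and they held an even larger part of all UMIs. Over all genes they held 88408771 UMIs in the RP-6306 and 86021965 in the vehicle library. Macrophage-like cells held 1252419 and 1263232, and cells that met no class 3232814 and 2411074. A gene at an even level in all classes would thus also lie mainly in tumour-like cells, and the ligand share shows no enrichment there. Summed over the 4 ligands, the tumour-like level was higher in the RP-6306 library by a ratio of 1.20 (1.19 to 1.21), and most of the difference lay in Cxcl2.

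Cxcl1, a ligand made by many epithelial and stromal cells, had 52098 UMIs in RP-6306 and 48330 UMIs in vehicle tumour-like cells. That is a level of 589 CPM (584 to 594) in RP-6306 cells and 562 CPM (557 to 567) in vehicle cells, a ratio of 1.05 (1.04 to 1.06). The gene was found in 77.5% of RP-6306 and 77.3% of vehicle tumour-like cells. Cxcl1 was thus broadly detected in the tumour-like cells of both libraries at nearly the same level. With each cell thinned to 2000 UMIs, 53.1% of 7959 RP-6306 cells and 51.4% of 7629 vehicle cells carried a Cxcl1 UMI, and the mean in those cells was 2.34 UMIs in both. Thinning left out 118 RP-6306 and 83 vehicle cells that were shallower.

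Cxcl2, a close relative of Cxcl1 that is also strongly expressed by activated myeloid cells, was the most abundant member. It had 72839 UMIs in RP-6306 and 53164 UMIs in vehicle tumour-like cells, or 824 CPM (818 to 830) and 618 CPM (613 to 623). The ratio was 1.33 (1.32 to 1.35), and 3.79% of the 13844 genes measured in these cells had a ratio at least as large. The higher level was spread over many cells: the 10 cells with the most Cxcl2 held 1546 of the RP-6306 UMIs and 1498 of the vehicle UMIs. At 2000 UMIs per cell, Cxcl2 was found in 41.4% of RP-6306 cells (40.4 to 42.5%) and 36.7% of vehicle cells (35.6 to 37.8%). Positive cells also carried more of it, at a mean of 3.99 UMIs in RP-6306 and 3.36 in vehicle cells, and 12.7% of RP-6306 against 9.03% of vehicle cells had at least 5 UMIs. In T or NK-like cells, whose median depth was 1262 UMIs in RP-6306 and 1436 in vehicle, 5 and 3 Cxcl2 UMIs were counted, or 62.6 and 47.7 CPM. That is under 0.1 of the tumour-like level in each library, as it was for Krt8 in the same cells.

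**Figure D2:**
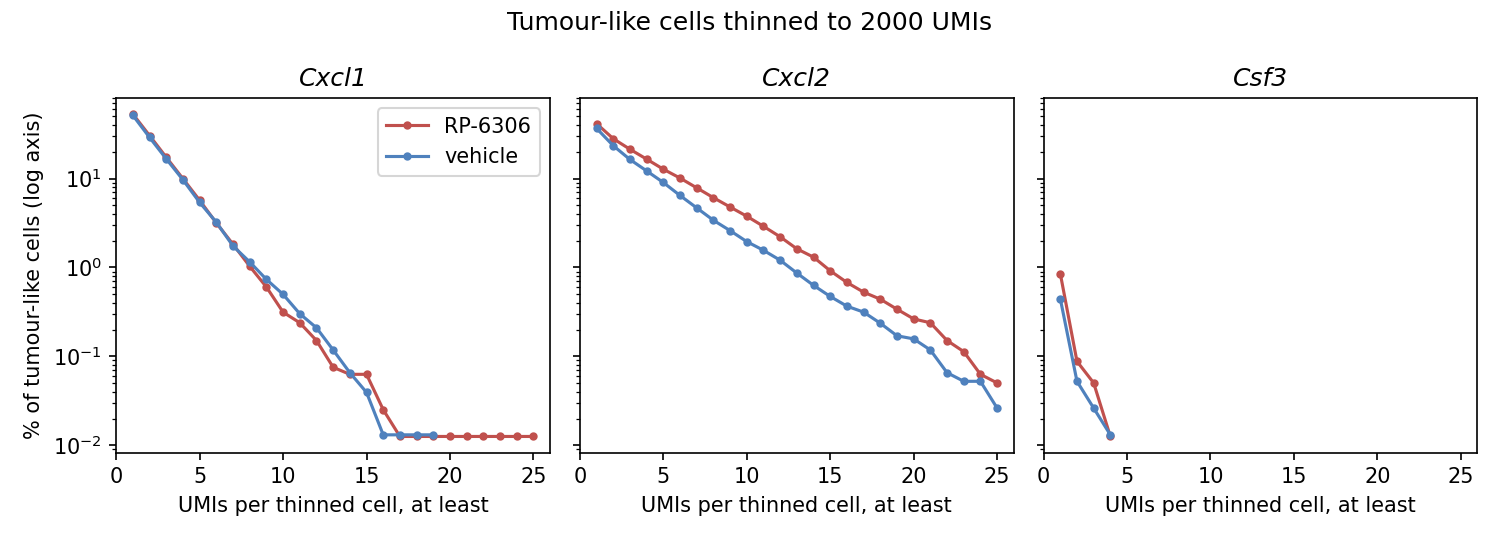
Percent of tumour-like cells (log axis) with at least the number of UMIs on the x axis, each cell thinned to 2000 UMIs, in the RP-6306 and vehicle libraries. The Cxcl1 curves lie close together up to 8 UMIs, the RP-6306 curve of Cxcl2 lies above that of vehicle, and Csf3 was found in 0.854% of RP-6306 and 0.446% of vehicle cells.

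Neutrophil markers were also higher in the tumour-like cells of the RP-6306 library. Summed over the neutrophil list, tumour-like cells held 11.5 CPM in the RP-6306 and 3.94 CPM in the vehicle library, with all 10 markers used found in both. S100a9, a marker in that list, had 355 and 69 UMIs there. A single RP-6306 cell held 166 of the 355 S100a9 UMIs, with 0 UMIs of Cxcl2 and Csf3. Without the cell richest in S100a9 in each library, S100a9 had 189 and 68 UMIs and the neutrophil list summed to 7.16 and 3.93 CPM, while Cxcl2 had 72839 and 53163 UMIs. The macrophage list summed to 18.9 and 17.0 CPM with 9 of 9 markers found. The part of other cells' RNA in the Cxcl2 level of tumour-like cells was not tested.

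By level, macrophage-like cells carried 3.62 times as much Cxcl2 as tumour-like cells in the RP-6306 library and 4.85 times as much in the vehicle library. The gene had 3734 UMIs in RP-6306 and 3790 in vehicle cells, which is 2981 and 3000.2 CPM with a ratio of 0.994 (0.950 to 1.04). Cxcl2 was found in 76.5% of RP-6306 and 75.0% of vehicle macrophage-like cells. Cxcl1 was lower there than in tumour-like cells, at 228 CPM in RP-6306 and 211 CPM in vehicle macrophage-like cells (285 and 267 UMIs), with a ratio of 1.08 (0.908 to 1.28). In monocyte-like cells the Cxcl2 level was 1673 CPM in the RP-6306 and 1914 CPM in the vehicle library, with a ratio of 0.874 (0.784 to 0.976). Their Cxcl1 had 36 UMIs in RP-6306 and 9 in vehicle cells. The level was 0.138 of that in tumour-like cells in the RP-6306 library, where Krt8 was at 0.0808, and 0.0524 in the vehicle library, where Krt8 was at 0.111.

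Fibroblast-like cells carried Cxcl1 at 1.45 times the tumour-like level in the RP-6306 library and at 0.958 of it in the vehicle library. The gene had 303 UMIs in RP-6306 and 165 in vehicle fibroblast-like cells, or 852 and 538 CPM, a ratio of 1.58 (1.31 to 1.93). Cxcl2 had 165 and 31 UMIs, or 464 and 101 CPM, a ratio of 4.59 (3.11 to 6.97). Few cells set these values: 10 of the 54 RP-6306 cells held 155 of the 165 Cxcl2 UMIs, and 10 of the 49 vehicle cells held all 31. For Cxcl1 the 10 highest cells held 189 of the 303 RP-6306 and 128 of the 165 vehicle UMIs. Dendritic-like cells (15 and 9) had 49 and 27 Cxcl1 UMIs and 102 and 33 Cxcl2 UMIs. Here too few cells set the values: 1 vehicle cell held all 27 Cxcl1 UMIs, and 1 RP-6306 cell held 13 of the 49. For Cxcl2 the highest single cell held 39 of the 102 RP-6306 and 23 of the 33 vehicle UMIs.

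Cxcl5, which is made mostly by epithelial and stromal cells, was rare. Tumour-like cells had 98 UMIs in the RP-6306 and 82 in the vehicle library, at 1.11 and 0.953 CPM, a ratio of 1.16 (0.858 to 1.58). By level it was highest in fibroblast-like cells, at 75.9 CPM in RP-6306 cells (27 UMIs in 6 cells) and 26.1 CPM in vehicle cells (8 UMIs in 2 cells).

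Cxcl3 was a gene of few cells in both libraries, with 230 UMIs in all retained RP-6306 and 289 in all retained vehicle cells. In tumour-like cells it had 69 and 53 UMIs, or 0.780 and 0.616 CPM, with a ratio of 1.27 (0.873 to 1.85). The 10 highest tumour-like cells held 27 of those UMIs in the RP-6306 and 17 in the vehicle library. Monocyte-like cells of the RP-6306 library held 62 Cxcl3 UMIs, 61 of them in 10 cells, against 10 UMIs in vehicle monocyte-like cells. In the vehicle library most of the transcript lay outside the classes: 179 UMIs were in cells that met no class, 4 of which held 48, 43, 32 and 31 UMIs. Those 4 cells had 0 UMIs of S100a8, S100a9 and Krt8. In the same order they had 113, 8, 13 and 21 UMIs of Cxcl2, 6, 6, 1 and 3 of Il1b, and 5, 0, 2 and 0 of Lyz2. Their cell type was not tested. In the RP-6306 library cells that met no class held 31 Cxcl3 UMIs.

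Of the colony-stimulating factors, Csf1 was the one broadly found, and Csf3 differed most between the libraries. Csf1 had 4999 UMIs in RP-6306 and 4595 in vehicle tumour-like cells, at 56.5 and 53.4 CPM, a ratio of 1.06 (1.02 to 1.10), and was found in 35.9% and 36.0% of cells. Macrophage-like cells carried it at 45.5 CPM in the RP-6306 and 57.8 CPM in the vehicle library (57 and 73 UMIs), and the ratio of 0.788 had an interval of 0.547 to 1.13. Fibroblast-like cells had the higher level of 95.6 and 75.1 CPM (34 and 23 UMIs).

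Csf3, the gene of G-CSF, had 475 UMIs in RP-6306 and 218 UMIs in vehicle tumour-like cells. The level was 5.37 CPM (4.90 to 5.88) in RP-6306 cells and 2.53 CPM (2.21 to 2.89) in vehicle cells, a ratio of 2.12 (1.80 to 2.50). Of the 13844 genes measured in tumour-like cells, 46 (0.332%) had a ratio at least as large. The transcript was in 249 RP-6306 cells (3.08%) and 145 vehicle cells (1.88%), and the 10 highest cells held 91 and 56 of the UMIs. At 2000 UMIs per cell the shares were 0.854% (0.664 to 1.08%) in RP-6306 and 0.446% (0.309 to 0.622%) in vehicle cells. Tumour-like cells held 94.4% of the Csf3 UMIs in each library, but they also held most UMIs of all genes. Cells that met no class had 24 RP-6306 and 11 vehicle Csf3 UMIs, at the higher levels of 7.42 and 4.56 CPM. The 10 RP-6306 and 3 vehicle neutrophil-like cells with at least 500 genes had 0 Csf3 UMIs. The UMIs clump by cell, so the interval of the ratio is too narrow.

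Csf2, the gene of GM-CSF, had 1198 UMIs in RP-6306 and 1011 in vehicle tumour-like cells. These are 13.6 and 11.8 CPM, a ratio of 1.15 (1.06 to 1.255), and 6.80% of RP-6306 and 5.91% of vehicle cells carried a UMI. Tumour-like cells held 97.5% of all Csf2 UMIs in the RP-6306 and 99.5% in the vehicle library, but they also held most UMIs of all genes. T or NK-like cells, which can make GM-CSF when activated, had 4 and 1 UMIs, in 3 of 50 RP-6306 and 1 of 35 vehicle cells. By level that is 50.1 CPM (13.7 to 128) and 15.9 CPM (0.402 to 88.5). Both values are above the tumour-like levels, on very few UMIs.

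Read over the whole set, 8 of the 10 members had at least 100 UMIs in tumour-like cells over both libraries. Of these 8, 3 were at least 25% higher in the RP-6306 library (Cxcl2, Cxcl3 and Csf3), beside a background of 5.98% of the 13844 genes measured, and 0 were at a ratio of 0.8 or less, beside 6.36%. The interval of Cxcl3 included 1, and its ratio was 1.13 without the 10 highest cells of each library. The remaining members, Cxcr2 (25 and 19 UMIs) and Csf3r (10 and 4), were too rare in tumour-like cells to be counted. The median log2 ratio of the 8 was 0.21, and that of all genes measured was -0.02. In macrophage-like cells 4 members were measured, of which 0 were at least 25% higher (background 10.2% of 3703 genes) and 1, Csf1, was at 0.8 or less (background 10.0%). Their median log2 ratio was -0.08, against -0.01 for all genes measured there.

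**Figure D3:**
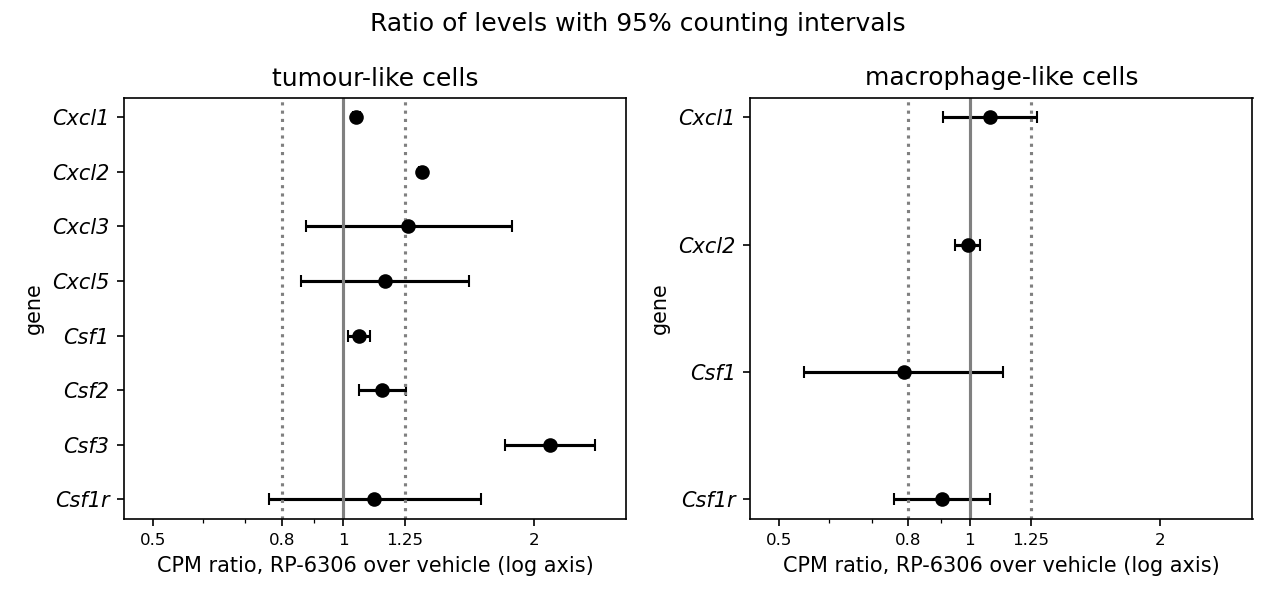
CPM ratio of RP-6306 over vehicle (log axis) for the members with at least 100 UMIs in tumour-like cells (left) and macrophage-like cells (right), with 95% counting intervals; the solid line marks 1 and the dotted lines a ratio of 0.8 and an excess of 25%. In tumour-like cells Csf3 (2.12) and Cxcl2 (1.33) lie beyond the upper dotted line with their whole interval.

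Other genes of the same families gave a mixed picture. Of 15 related ligands and receptors, 7 were measured in tumour-like cells. Of these, 2 were at least 25% higher (background 5.98% of 13844 genes) and 0 were at 0.8 or less (background 6.36%). The median log2 ratio of the 7 was 0.12. The higher genes were Il6, an inflammatory cytokine, at 5.71 CPM in RP-6306 and 3.02 CPM in vehicle cells (505 and 260 UMIs, ratio 1.89, 1.62 to 2.20), and Pf4, platelet factor 4, at 53.7 and 42.8 CPM (1.26). Macrophage-like cells carried Pf4 at 1024 and 974 CPM. Lif, a cytokine of the interleukin 6 family, was at 10.2 and 8.45 CPM (1.20), and Il34, the other ligand of CSF1R, at 20.2 and 18.8 CPM (1.08). Kitl, the stem cell factor gene, was at 94.9 and 101.9 CPM (0.931), and Flt3l at 2.34 and 2.24 CPM (1.04). Ppbp encodes another CXCR2 ligand, which is not part of the sum of 4 ligands given above. It was at 2.06 CPM in RP-6306 and 1.89 CPM in vehicle tumour-like cells (182 and 163 UMIs, ratio 1.09, 0.875 to 1.35). Ppbp had 28 and 41 UMIs in macrophage-like cells, and 31 and 1 in monocyte-like cells.

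Of 20 genes that induce these ligands or feed back on NF-kB, 17 were measured in tumour-like cells, with a median log2 ratio of 0.07. Of the 17, 1 was higher (background 5.98%) and 0 were lower (background 6.36%). The 1 was Il1rn, the interleukin 1 receptor antagonist, with 228 UMIs in RP-6306 and 150 in vehicle cells (ratio 1.48, 1.20 to 1.83). Nfkbia, which encodes the inhibitor of NF-kB that NF-kB itself induces, was at 1884 CPM in RP-6306 and 1797 CPM in vehicle cells (1.05). Il1r1, the signalling receptor of interleukin 1, was at 38.1 and 33.8 CPM (1.13). The ratios of the other measured genes of this list ran from 0.857 (Icam1, 81 and 92 UMIs) to 1.17 (Birc3, 1246 and 1033 UMIs). Among the 20, macrophage-like cells gave 14 measured genes, of which 0 were higher (background 10.2% of 3703 genes) and 4 were lower (background 10.0%). The 4 were Nfkb1 (89 and 126 UMIs, ratio 0.712), Nfkb2 (50 and 66, 0.764), Birc3 (43 and 66, 0.657) and Icam1 (67 and 109, 0.620). The interval of Nfkb2 included 1. Genes with more UMIs differed in direction, with Nfkbia at 1.07 (1076 and 1013 UMIs) and Zfp36 at 0.854 (1617 and 1910). Il1b, a main inducer of Cxcl1 and Csf3 in many cells, was at 2363 and 2080 CPM there, a ratio of 1.14.

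Within tumour-like cells the ligands were found together more often than their single shares give. At 2000 UMIs per cell, 54.6% of RP-6306 cells with a Cxcl1 UMI also had Cxcl2 (2308 of 4224 cells), against 26.5% of RP-6306 cells without Cxcl1. In the vehicle library the shares were 49.5% (1941 of 3921 cells) and 23.2%. Cells with both were 1.32 times as many in the RP-6306 and 1.35 times as many in the vehicle library as the product of the single shares gives.

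The rarer factors lay on the same side. Csf3 was found in 1.33% of Cxcl1-positive and 0.321% of Cxcl1-negative RP-6306 cells, and in 0.663% and 0.216% of the vehicle cells. Put the other way, 56 of the 68 Csf3-positive RP-6306 cells (82.4%) and 26 of the 34 vehicle ones (76.5%) also had Cxcl1. Csf2 was found in 2.41% of Cxcl1-positive and 1.37% of Cxcl1-negative RP-6306 cells, and in 2.04% and 0.890% of the vehicle cells. For Csf1 the ratio of the shares was smaller, at 12.2% and 7.50% in RP-6306 and 11.5% and 8.39% in vehicle cells. Csf3 and Csf2 shared 2 cells in each library, too few to compare.

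**Figure D4:**
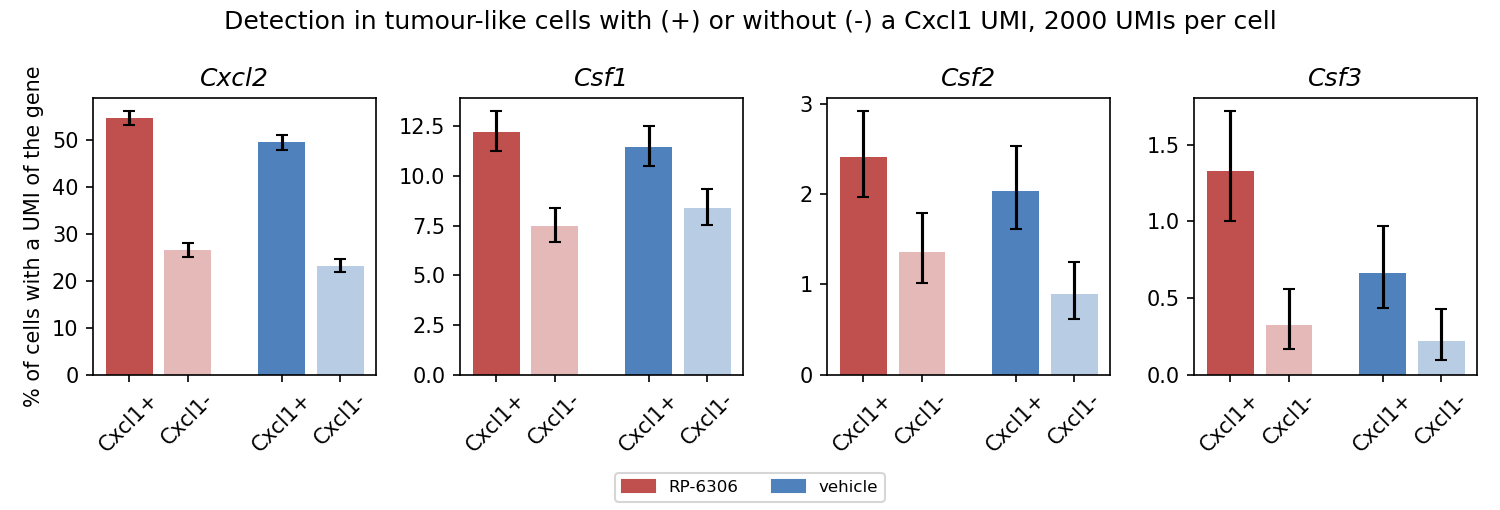
Percent of tumour-like cells with a UMI of Cxcl2, Csf1, Csf2 or Csf3 among cells with (Cxcl1+) or without (Cxcl1-) a Cxcl1 UMI, each cell thinned to 2000 UMIs; bars are the RP-6306 and vehicle libraries, error bars 95% binomial intervals. In both libraries each of the 4 genes was found in a larger share of Cxcl1+ cells.

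Across tumour-like cells of equal depth, the genes whose counts ran most like Cxcl1 were, among 4774 genes compared, Nfkbia, Cxcl2, Junb, Ccl2 and Ier3. Their Pearson correlations of log counts, averaged over the libraries, were 0.43, 0.36, 0.33, 0.31 and 0.28. Junb and Ier3 are immediate-early response genes, and Ccl2 encodes a monocyte-attracting chemokine. For Cxcl2 the 5 genes were Nfkbia (0.37), Cxcl1 (0.36), Ccl2 (0.32), Ier3 (0.26) and Junb (0.24), the same genes apart from the swap of Cxcl1 and Cxcl2. For Csf1 the highest value was 0.10 (Sdc4), which in sparse counts is no finding. These values are descriptions within cells of the same tumours, which share library and handling.

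By level and by share of cells, each receptor was highest in a class other than tumour-like cells. Csf1r, the receptor of CSF1 and a gene of the macrophage lineage, was found in 131 of the 247 RP-6306 macrophage-like cells (53.0%) and 146 of the 232 vehicle ones (62.9%), at median depths of 4776 and 5269 UMIs. Its level was 199.6 CPM in RP-6306 and 220.9 CPM in vehicle cells (250 and 279 UMIs), a ratio of 0.904 (0.759 to 1.08). At 2000 UMIs per cell the shares were 32.4% of 225 and 33.2% of 220 cells. Tumour-like cells, the background here, had a Csf1r UMI in 0.718% and 0.545% of cells at greater depth.

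Monocyte-like cells carried less Csf1r than macrophage-like cells in the RP-6306 library. The level was 133 CPM in RP-6306 and 213 CPM in vehicle cells (59 and 65 UMIs), a ratio of 0.626 (0.432 to 0.904). It was found in 31.7% and 43.6% of these cells, and in 8.45% and 16.1% at 1000 UMIs per cell. The receptor chains of GM-CSF were in the same classes, where macrophage-like cells had Csf2ra at 136 and 150.4 CPM and Csf2rb at 168 and 198 CPM. In monocyte-like cells Csf2ra was at 158 and 164 CPM and Csf2rb at 259 and 232 CPM.

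Cxcr2 and Csf3r, the receptors through which neutrophils sense these ligands and G-CSF, were found in a larger share of the few neutrophil-like cells than of any other class plotted. Most of those cells were shallow: 10 RP-6306 and 3 vehicle cells had at least 500 genes, and 52 and 29 had at least 200 genes, with median depths of 706.5 and 670 UMIs. Among the larger set, 18 RP-6306 cells (34.6%, 22.0 to 49.1%) and 6 vehicle cells (20.7%, 7.99 to 39.7%) had a Cxcr2 UMI. Tumour-like cells had one in 0.297% and 0.246% of cells, at median depths of 9673.5 and 9778.5 UMIs. Being so many, they still held 25 of the 38 RP-6306 and 19 of the 25 vehicle Cxcr2 UMIs of retained cells. Csf3r was in 20 RP-6306 (38.5%) and 11 vehicle (37.9%) neutrophil-like cells, against 0.124% and 0.0518% of tumour-like cells. The intervals of both libraries overlap widely for each receptor. Cxcr2 had 0 UMIs in macrophage-like cells of both libraries with at least 500 genes, while Csf3r had 14 and 7.

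The neutrophil-like cells were themselves rich in a CXCR2 ligand. With at least 200 genes, 46 of the 52 RP-6306 cells (88.5%) and 25 of the 29 vehicle cells (86.2%) had a Cxcl2 UMI, at 21709 CPM (1192 UMIs) and 21120 CPM (486 UMIs). The level depended on the cells used: in the 10 RP-6306 and 3 vehicle cells with at least 500 genes it was 6438 CPM (163 UMIs) and 13434 CPM (64 UMIs), a ratio of 0.479 (0.357 to 0.650). In each library 1 of these cells held 41 of the UMIs, so the interval of that ratio is too narrow. Both sets of cells stood above the macrophage-like level of their library. Cxcl3 was in 21 RP-6306 and 9 vehicle cells, at 2313 CPM (127 UMIs) and 1173 CPM (27 UMIs), while Cxcl1 had 9 and 5 UMIs. Csf1r had 1 and 0 UMIs in these cells.

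**Figure D5:**
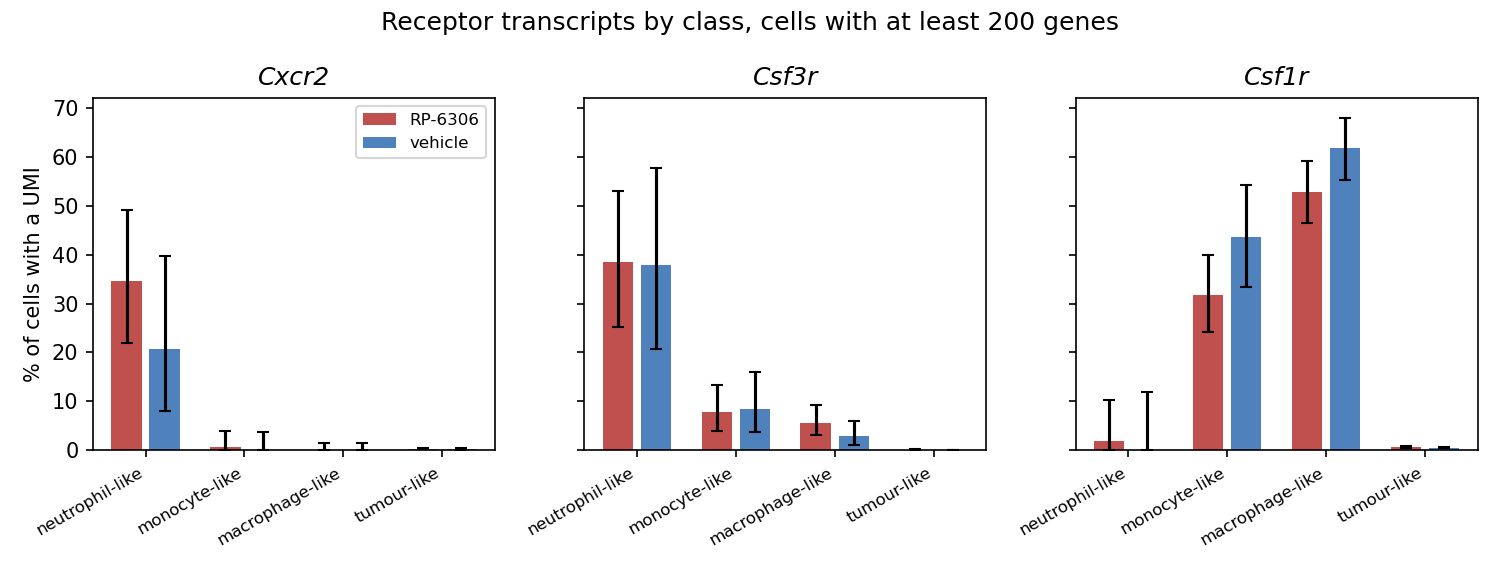
Percent of cells with at least 1 UMI of Cxcr2, Csf3r and Csf1r in 4 classes of the RP-6306 and vehicle libraries, using cells with at least 200 genes; error bars are 95% binomial intervals. Cxcr2 and Csf3r stand highest in neutrophil-like cells (34.6% and 20.7% for Cxcr2) and Csf1r in macrophage-like cells, and the 4 classes differ in depth.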

How the data were processed

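The 2 libraries are 10x Genomics 3' libraries, per the labels. The deposited matrices hold unnormalized UMI counts as whole numbers. Per the file headers they were written by Cell Ranger 7.1.0, whereas version 2.1.1 and mm10 stand in the submitters' processing notes, and which was used was not resolved. Cell Ranger drops reads that match more than 1 gene, and Cxcl1, Cxcl2 and Cxcl3 are related in sequence, so these genes could be undercounted.

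Cells with at least 500 genes and at most 15% mitochondrial UMIs were kept (188 and 16 RP-6306 and 132 and 14 vehicle barcodes removed). Doublets were scored with Scrublet in scanpy 1.11.5. Its automatic threshold called 1 and 0 cells, so the cells above the cut for the highest 8% of scores were removed (808 and 684). Each cell was classed by markers: a class needed 3 markers of its list, and tumour-like cells needed 2 tumour markers and no other class. The 8 markers found in over 10% of retained cells were not counted, and cells of another class with at least 3 tumour markers were set apart as mixed (46 and 34). Tumour-like cells at the cut of 2 markers numbered 1130 and 849, and 167 and 143 cells lay 1 marker below the macrophage-like cut. These thresholds were set after seeing the data. UMIs were summed per class and library and scaled to CPM. Intervals are exact Poisson for levels, exact binomial (Clopper-Pearson) for shares and exact conditional for ratios. Shares across depths use cells thinned to 2000 UMIs (1000 for monocyte-like cells). No test was made, since cells are not replicates.

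Ratios are printed where a gene had at least 100 UMIs in a class over both libraries; smaller ones are given with their UMIs. Named were the 10 members and a part of the measured genes of 2 related lists, while the counts and medians cover all measured genes of each list. The members and lists were chosen with earlier results of these data known. The listing of single Cxcl3-rich cells, the values without the cell richest in S100a9 and the thinned receptor shares were added after seeing the data. Positions come from an identifier match to GENCODE M21 on GRCm38, and promoters from RefSeq (GRCm38.p6), where 7 of the 10 genes were matched and used. The summing and ratio steps were tested on simulated data.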

Additional observations from a re-analysis of the deposited data

Results flagged for a closer look

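Barcodes with at least 200 but under 500 genes, which were left out of the main values, carried neutrophil receptor transcripts. The 178 such RP-6306 barcodes held 14 Cxcr2 UMIs and 21 Csf3r UMIs, and the 122 vehicle barcodes held 7 and 15. All of these UMIs were in the 42 RP-6306 and 26 vehicle barcodes classed as neutrophil-like. The tumour-like barcodes of this depth (13 and 14) and those that met no class (111 and 72) had 0.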

How the results depend on the processing

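No paired analysis was possible because each treatment had 1 library, and for the same reason no library could be left out. Of the member ratios in tumour-like cells, that of Csf1r crossed 1: it was 1.12, 0.874 with the mean of per-cell CPM and 1.65 with the stricter gate, on few UMIs. In tumour-like cells the count of members at least 25% higher, or at a ratio of 0.8 or less, was 3, and 5 both with a minimum of 10 UMIs and with the mean of per-cell CPM. It was 2 with no doublets removed and with a stricter gate, where Cxcl3 stood at 1.13 and 1.225. In macrophage-like cells the count of 1 became 3 with a minimum of 10 UMIs, and 0 both with the mean of per-cell CPM and with no doublets removed. The summed CXCR2 ligand ratio of 1.20 was 1.22 with median-of-ratios size factors and 1.18 with no doublets removed. The tumour-like share of ligand UMIs was 91.5% in RP-6306 and 91.2% in vehicle cells with no doublets removed, 90.9% and 90.8% with a minimum of 200 genes, and 84.6% and 85.9% with a stricter gate, where the vehicle share was the higher. The share of RP-6306 neutrophil-like cells with a Cxcr2 UMI was 70.0% of 10 cells with at least 500 genes and 34.6% with the minimum of 200. Cxcl2 in Cxcl1-positive tumour-like cells was found in 46.6% of RP-6306 and 40.03% of vehicle cells at 1000 UMIs, and in 70.1% and 65.1% without thinning. The cause of these shifts was not tested. Csf3 ranged from 1.92 (mean of per-cell CPM) to 2.35 (stricter gate) and Cxcl2 from 1.30 to 1.36. Csf2 was 1.38 with the mean of per-cell CPM. Without the 10 highest cells Cxcl3 was 1.13.

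Depth limits the receptor shares: neutrophil-like cells are few and shallow, so a share of cells with a UMI is not a share of cells expressing the receptor. UMIs that clump by cell make intervals too narrow, for Cxcl1, Cxcl2, their summed level and Csf2 as for Csf3, Cxcl3 and Cxcl5. Single RP-6306 tumour-like cells held up to 82 Cxcl1, 211 Cxcl2 and 28 Csf2 UMIs.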
